A study of Mus musculus with 8 samples.

Results

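The Rab family of small GTPases was described across parental cells and splenic tumors of the mouse pro-B cell line FL5.12. A gene was a member where a probe set with a single gene symbol had a name made of Rab, a number and at most 1 letter, as in Rab5a or Rab27b, so that regulators such as Rabgap1 were not members. This gave 50 genes, measured by 95 of the 22690 probe sets on the array, out of 12393 genes with a single symbol. Each gene was read from its probe set with the highest mean signal. Of the 50 members, 42 passed a filter on low signal (above the 40th percentile of the array on at least 2 of the 8 arrays) and were tested, among 8527 genes tested in all.

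Rab proteins are switches on membranes. In the GTP-bound state they recruit effectors that tether, move and fuse vesicles. Exchange factors turn them on, GTPase-activating proteins turn them off, and a prenyl tail added by geranylgeranyl transferase and its escort protein anchors them in the bilayer. Each compartment of the secretory and endocytic routes carries its own members, and in blood cells the Rab27 pair is known for the docking of secretory granules and for the release of exosomes.

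The parental cells were FL5.12 cells, which grow in medium with IL-3 (here from WEHI-3B supernatant), stably transfected with Bfl-1DC, a form of the survival protein Bfl-1, and with p53DD, a dominant-negative form of p53. These cells were given intravenously to nude mice, and RNA came from the spleens of 3 mice with leukemia or lymphoma (tumors 1, 2 and 3) and from the parental line, each on 2 Affymetrix arrays. Both transgenes are thus shared by all groups, and no untransfected or empty-vector cells are among the samples. The labels do not say whether the line is 1 clone, how old the mice were, whether cells from a tumor passed through culture first, or whether the 2 arrays of a source began from separate extractions. The p-values therefore measure only the spread between these samples, which is partly technical. Nude mice lack a thymus but keep B cells, NK cells and myeloid cells, so a spleen can hold host cells beside the injected ones. In such bulk RNA, fewer cells of a type and less RNA per cell cannot be told apart.

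Every array had been scaled to the same trimmed mean of 150.06, and median signals ran from 32.4 to 37.9. The duplicate arrays of a source correlated at 0.951 to 0.972 across genes. First and second arrays shared deviations across sources, with a correlation of 0.402 to 0.597 in each of 6 pairs of sources, so a fit with the array number as a block is given where it changes a call. Of 13 pro-B markers on the array, 10 lay at or below the 40th percentile on both parental arrays. Pax5, Ebf1, Rag1 and Rag2 were among them, while Cd79a (87.7 and 95.2) and Cd79b (109 and 77.6) were measured. On the tumor arrays Cd79a had 127.7 to 276.9 and Cd79b 208.6 to 298.2. The summed signal of the 13 pro-B markers was 243.5 to 251.7 on the parental arrays and 477.9 to 705.1 on the tumor arrays. Of the 5 pro-B markers tested, 4 had a difference above 0. Cd24a and Igll1, among these 4, passed the filter on low signal only through tumor arrays. Their direction is thus no support for a difference. Cd79b had a limma adjusted p of 0.0419 for tumors against parental cells. Marker lists of other blood cells differed in direction. The summed signal of 14 neutrophil markers was 337 to 845 on the parental arrays and 4181 to 10600 on the tumor arrays, that of 6 eosinophil markers 38.1 to 44.1 and 3642 to 8221, and that of 14 macrophage and monocyte markers 206 to 921 and 835 to 3244. The summed macrophage signal thus overlapped between groups. Those of 10 T cell markers were 111 to 177 and 881 to 2614, almost all of it from Cd3g and Cd3d, while 6 of the 10, among them Cd3e, Cd4 and Thy1, lay at or below the 40th percentile on all arrays. The sums of NK cell markers (661 to 3857 parental, 144 to 2187 tumor), erythroid markers (1114 to 1784, 438 to 1462) and mature B cell markers (416 to 908, 309 to 857) overlapped and reached lower in the tumors. Single markers within these lists went both ways. Of those tested, 1 of 2 NK cell, 5 of 7 erythroid and 3 of 4 mature B cell markers had a difference above 0. Slc4a1, among the erythroid ones above 0, passed the filter only through the tumor arrays, with the same limit. Gzmb, at 576 and 3808, made up most of the NK cell sum on the parental arrays, and 5 of the 8 NK cell markers lay at or below the 40th percentile on all arrays. On both parental arrays 9 of the 14 neutrophil, all 6 eosinophil and 9 of the 14 macrophage markers lay at or below the 40th percentile. The part of these cells in the results below was not tested.

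The first question was which Rab genes differed between the tumors and the parental line. Rab27b fell in all 3 tumors and was the only member called by limma at an adjusted p under 0.05 (1 of 42, 2.38%). Of all genes tested, 0.762% were called (50 up and 15 down, or 47 and 25 after centring each array on its median). Rab27b passed the filter on low signal only through the parental arrays, where it is high, and without the filter no member was called. The calls of Rab27b counted here are thus no support for a difference, and its values are given as a description. At an unadjusted p under 0.05 there were 9 members (21.4%), 7 higher and 2 lower in the tumors, against 16.4% of all genes. All 3 tumor means lay above both parental arrays for 11 members (26.2%, against 20.0% of all genes), and below both for 6 (14.3%, against 15.7%). After centring on the median these counts became 8 above and 10 below, against 12.7% and 24.8% of all genes, so the balance of directions within the family depends on the scaling. With the replicate number as a block, in a fit of all 8 arrays whose error is the spread between duplicate arrays and not between mice, limma called 8 members (19.0%) against 14.6% of all genes: Rab27b, Rab27a, Rab2a, Rab32, Rab31, Rab5c, Rab3d and Rab11a.

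Across the family most differences were small. The median difference of the 42 members was 0.08 on the log2(signal + 16) scale, from -1.96 to 1.29, beside a median of 0.02 for all genes. Between the second and first array of 1 source the members' median difference was 0.25 in the parental cells and 0.06 to 0.16 in the tumors. For all genes it was -0.008 to 0.011. Centring on the median shifted all genes by -0.11 and took the members' median to -0.03 beside -0.09. The size of the difference was under 0.5 for 32 members (76.2%) and for 82.6% of all genes, and it was over 1 for 4 members: Rab27b, Rab27a, Rab31 and Rab32. The median size was 0.22 in the members and 0.22 in all genes.

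**Figure D1:**
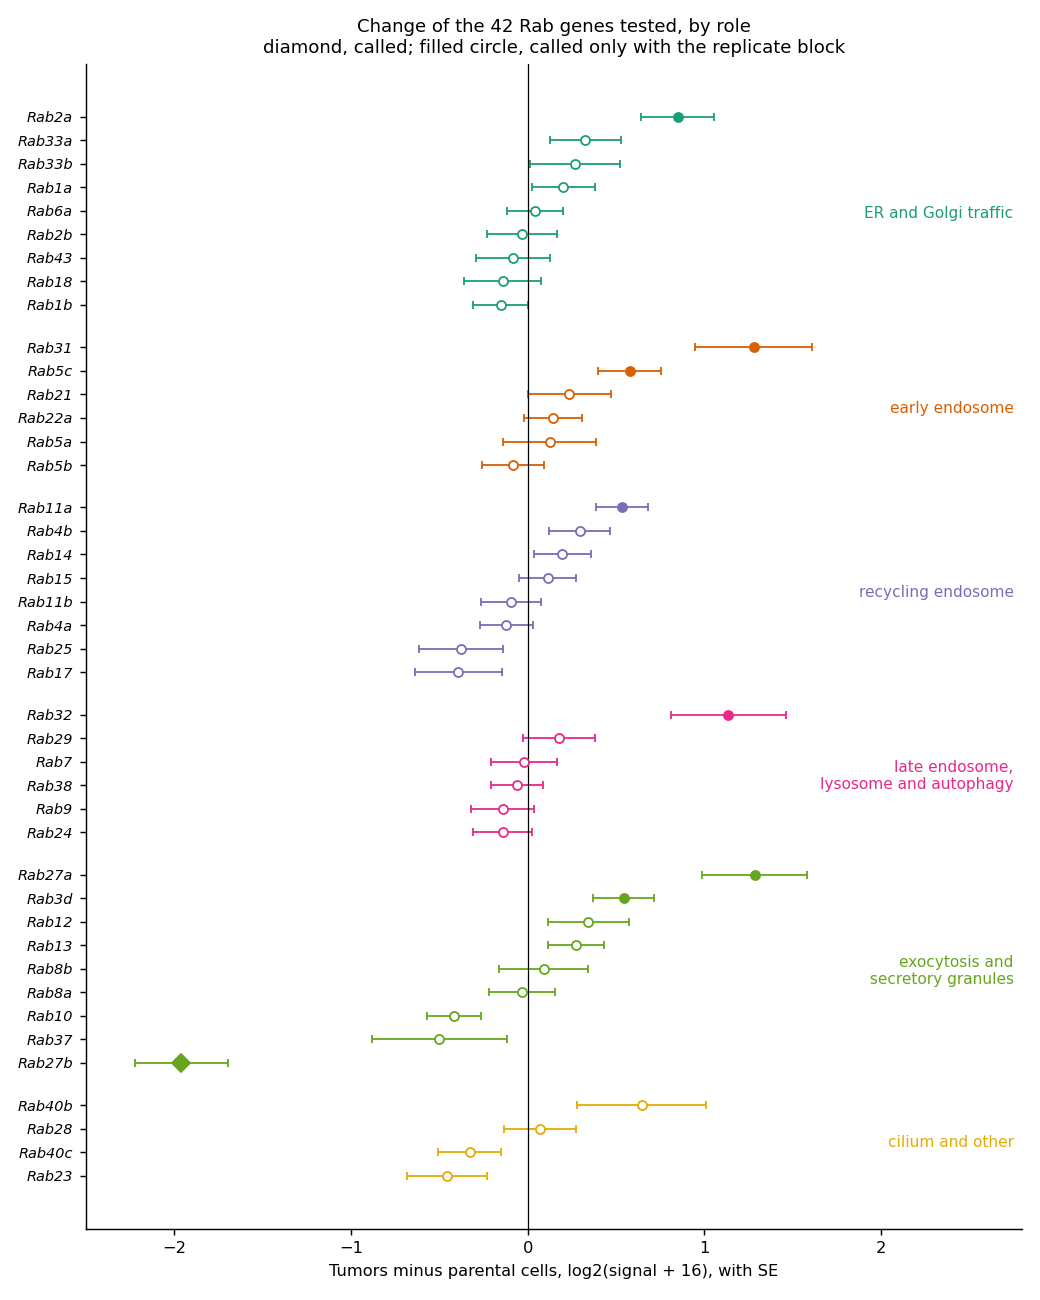
Difference between tumors (3 tumors, each the mean of 2 arrays) and parental cells (2 arrays) for the 42 Rab genes tested, grouped by role, on the log2(signal + 16) scale. Points are estimates and bars are standard errors, the diamond is the gene called in the comparison of 3 tumors with 2 parental arrays, and filled circles are those called only with the replicate block. Rab27b stands alone at -1.96, and most other members lie within 0.5 of 0.

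The Rab27 pair of the exocytosis group held both ends of this range. Rab27b, which docks secretory granules and multivesicular bodies at the plasma membrane, had signals of 64.9 and 131 on the parental arrays, 12.7 and 13.9 for tumor 1, 5.9 and 21.4 for tumor 2, and 6.7 and 14.6 for tumor 3. All 6 tumor arrays lay below both parental arrays, and only 1 of the 6 exceeded its array's 40th percentile, so that Rab27b passed the filter on low signal through the parental arrays, where it is high. Rab27b fell by 1.96 ± 0.26 (SE, 3 tumors against 2 parental arrays) on the log2(signal + 16) scale, with an adjusted p of 0.0357 by limma and of 0.000881 with the replicate block. The tumors sit at the floor of the signal, so the size of the fall depends on the pseudocount: it was 2.90 with a pseudocount of 1 and 1.06 with 64. The call was lost without the second parental array (fall of 1.53, adjusted p = 0.119) and without tumor 1, 2 or 3 (0.0746, 0.066 and 0.0792), and it was kept without the first parental array (0.0309).

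The second probe set of Rab27b had 24.4 and 67.3 on the parental arrays and 0.9 to 12.1 on the 6 tumor arrays, a difference of -1.41, so both probe sets placed every tumor array below the parental ones. The second probe set too passed the filter only through the parental arrays, so its values are given as a description. The parental arrays themselves differed: the second had the higher Rab27b signal on both probe sets. Some mast cell genes differed between these arrays too: the granule proteases Cma1, at 180 and 2047, and Cpa3, at 11.7 and 595, and the IgE receptor chain Fcer1a, at 2.1 and 189 on the first and second parental array. Kit, a receptor carried by mast cells, was near the floor on all 8 arrays (1.6 to 11.7), while Gata2 of the same list had 742.1 and 1168.9 on the parental arrays and 1471.5 to 2039.9 on the tumor arrays. Genes of other lists also differed between the parental arrays. Csf1r had 11.5 and 554.6 and Gzmb 576 and 3807.6 on the first and second, and Prtn3 went the other way, with 724.5 and 162.4. The 11 mast cell and basophil markers summed to 973 to 4083 on the parental arrays and 2101 to 10310 on the tumor arrays, and 11 platelet markers to 851 to 918 and 817 to 1249. In tumor 1, Fcer1a was at 5067 and 6654 and Rab27b at 12.7 and 13.9. The part of such cells in the Rab27b result was not tested.

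Rab27a is the close relative of Rab27b, shares many of its effectors and is needed for the exit of lytic granules from cytotoxic cells. Its signals were 20.7 and 42.5 on the parental arrays, 51.3 and 99.2 for tumor 1, 111 and 164 for tumor 2, and 63.7 and 131 for tumor 3. Every tumor array lay above both parental arrays, and within each source the second array was the higher. The difference was 1.29 ± 0.30 (SE, 3 tumors against 2 parental arrays), opposite in sign to that of Rab27b. It did not pass limma's test (adjusted p = 0.119) but did with the replicate block (0.00113). The block fit, here and below, takes its error from duplicate arrays and not from mice. The other Rab27a probe sets gave 0.80 and 0.41. In the single tumors the difference was 0.93, 1.71 and 1.23, and none of these passed without the block (limma adjusted p of 0.108 to 0.254). The neutrophil, eosinophil, pro-B and T cell marker sums given above were also higher on every tumor array than on both parental arrays. So were those of plasma cell markers (1252 to 1576 parental, 1678 to 1950 tumor) and stroma markers (54.1 to 67.2, 70.2 to 175.2). The part of such cells in the Rab27a signal was not tested.

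The promoters of Rab27a, Rab31 and Rab32, the 3 members with differences over 1 towards higher tumor signal, are shown for their sequence context. Each is the 250 bases before an annotated transcript start, from RefSeq on build GRCm38.p6, with matches to the searched motifs in capitals, on either strand. Rab27a has 2 annotated promoters on the plus strand, at chr9:73044560-73044809 and chr9:73063898-73064147. Those of Rab31 (chr17:65772753-65773002) and Rab32 (chr10:10558208-10558457) lie on the minus strand.
Rab27a, upstream promoter: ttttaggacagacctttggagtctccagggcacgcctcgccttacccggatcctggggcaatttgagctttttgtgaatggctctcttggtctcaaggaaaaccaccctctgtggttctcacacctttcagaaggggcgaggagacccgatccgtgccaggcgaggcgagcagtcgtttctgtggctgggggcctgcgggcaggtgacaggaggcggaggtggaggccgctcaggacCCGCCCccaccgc
Rab27a, downstream promoter: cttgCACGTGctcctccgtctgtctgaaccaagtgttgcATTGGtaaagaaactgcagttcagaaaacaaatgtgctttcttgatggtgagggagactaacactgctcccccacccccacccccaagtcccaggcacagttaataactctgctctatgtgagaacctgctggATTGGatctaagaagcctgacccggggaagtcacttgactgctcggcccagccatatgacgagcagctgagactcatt
Rab31: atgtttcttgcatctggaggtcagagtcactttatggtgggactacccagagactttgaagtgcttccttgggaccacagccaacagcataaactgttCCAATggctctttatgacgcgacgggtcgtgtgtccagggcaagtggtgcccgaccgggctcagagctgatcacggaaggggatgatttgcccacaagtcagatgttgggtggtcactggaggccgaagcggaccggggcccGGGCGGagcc
Rab32: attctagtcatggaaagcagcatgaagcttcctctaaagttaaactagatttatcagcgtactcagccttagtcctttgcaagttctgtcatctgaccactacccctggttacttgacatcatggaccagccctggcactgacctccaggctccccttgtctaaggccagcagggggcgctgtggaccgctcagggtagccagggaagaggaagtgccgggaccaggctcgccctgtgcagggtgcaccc
The motifs searched on both strands were the E-box of MiT/TFE factors (CACGTG), the GC box (GGGCGG), the CCAAT box (CCAAT), the cAMP response element (TGACGTCA) and the TATA box (TATAAA), none of which contains another. The downstream Rab27a promoter has the E-box, its first base 246 bases before the start, and CCAAT boxes at 211 and 78 bases. The upstream one has a GC box at 13 bases. Rab31 has a CCAAT box at 152 and a GC box at 10 bases, and no match was found in the Rab32 window.

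Promoters of 42 members were in the RefSeq table, 54 in all, and Rab27b, Rab2a, Rab18, Rab30, Rab37, Rab38, Rab4a and Rab7b were not among them. The GC box was in 66.7% of member promoters and in 32.7% of 32851 promoters of the same length, and the median GC content was 60.2% and 52.4%. The CCAAT box was in 40.7% and 33.8%, the E-box in 9.26% and 6.02%, and the cAMP response element in 3.70% and 1.55%. The TATA box was the 1 motif less frequent in the members, in 3.70% of their promoters against 12.4%. These are descriptions of letters and no count of sites in use.

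Among the other exocytosis members, Rab3d, found on secretory vesicles of exocrine and mast cells, had 188 and 180 on the parental arrays, 274 and 295 for tumor 1, 299 and 319 for tumor 2 and 250 and 223 for tumor 3. All tumor arrays were above both parental arrays, and the duplicates lay close together. The difference was 0.54 ± 0.17 (limma adjusted p = 0.207, and 0.0248 with the replicate block). Rab10, which brings vesicles with glucose transporters to the surface, had 472 and 427 on the parental arrays, 330 and 343 for tumor 1, 364 and 267 for tumor 2, and 362 and 338 for tumor 3. These groups did not overlap either, with the tumors lower by 0.42 ± 0.15 (SE) on the log2 scale, but Rab10 passed neither limma's test (adjusted p = 0.257) nor that with the replicate block (0.0757). Its 3 probe sets all had the tumors lower.

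Rab8b, which acts in transport from the Golgi to the plasma membrane, was the exocytosis member of highest mean signal. It had 660 and 907 on the parental arrays, 426 and 902 for tumor 1, 776 and 1107 for tumor 2 and 845 and 1121 for tumor 3, and the groups overlapped (difference 0.09 ± 0.25). Of the 9 members of this group tested, 5 had a difference above 0 and 4 below. Rab13 and Rab12 had 0.27 and 0.34, Rab8a -0.03 and Rab37 -0.50, none of them called in the comparison of all tumors.

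**Figure D2:**
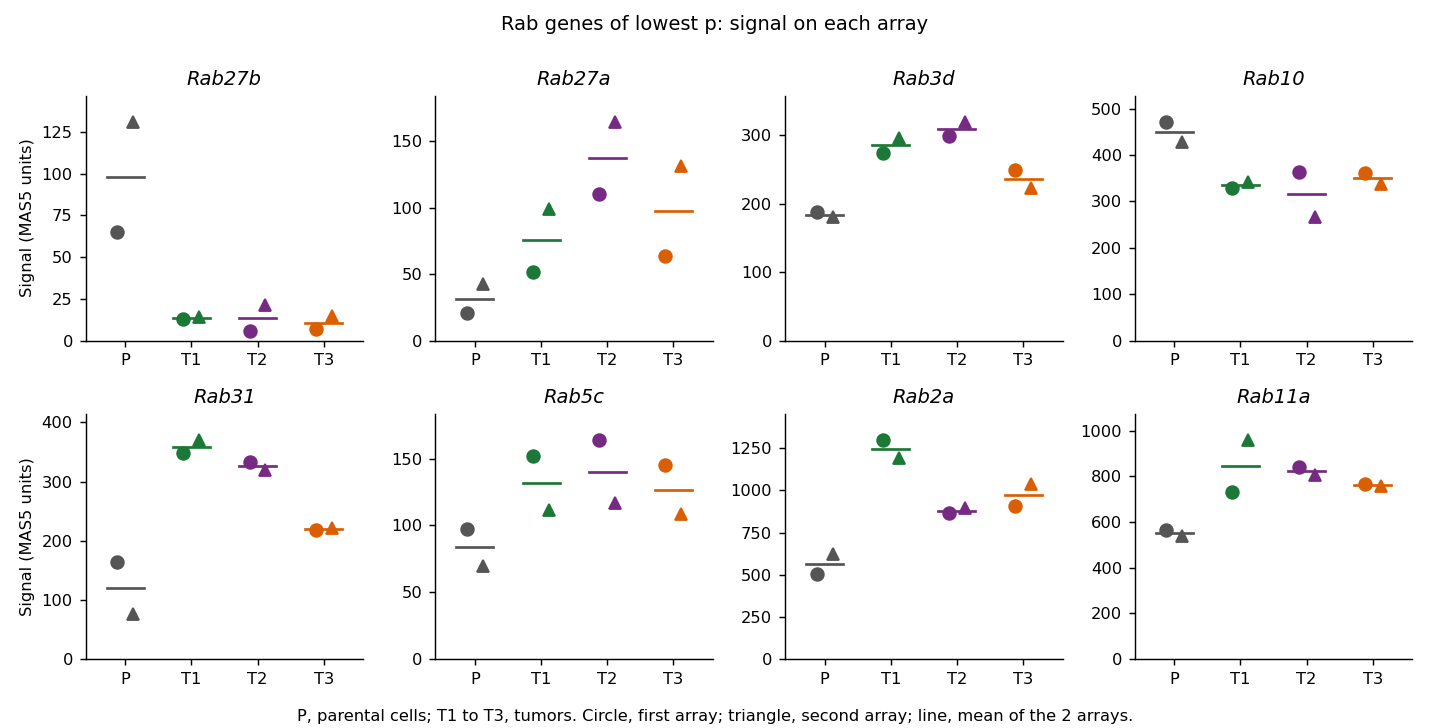
Signal (linear MAS5 units, axis from 0) of 8 Rab genes on each of the 8 arrays: parental cells (P) and tumors 1 to 3 (T1 to T3), with circles for first arrays, triangles for second arrays and lines for the mean of both. Rab27b and Rab10 have every tumor array below both parental arrays, and the other 6 genes have every tumor array above them. Scales differ between panels and levels of different genes are not comparable.

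In the early endosome group, where Rab5 proteins drive the fusion of incoming vesicles, Rab31 and Rab5c had the largest differences. Rab31, which works between the trans-Golgi network and early endosomes, had 163 and 75.9 on the parental arrays, 348 and 370 for tumor 1, 332 and 320 for tumor 2, and 218 and 222 for tumor 3. The tumor duplicates differed little, and the larger gap was between the parental arrays. The difference was 1.28 ± 0.33 (limma adjusted p = 0.145, and 0.0108 with the replicate block), and the second probe set gave 1.02. Rab5c had 97.4 and 70.0 on the parental arrays, 152 and 112 for tumor 1, 164 and 117 for tumor 2, and 146 and 108 for tumor 3. In all 4 sources the first array was the higher, and the groups did not overlap. The difference was 0.58 ± 0.18 (limma adjusted p = 0.197, and 0.0157 with the replicate block).

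The paralog Rab5a, the member of this group with the highest mean signal, had 471 and 733 on the parental arrays, 706 and 928 for tumor 1, 581 and 674 for tumor 2 and 517 and 531 for tumor 3. The groups overlapped (difference 0.13 ± 0.26). The remaining members tested, Rab21, Rab22a and Rab5b, ranged from -0.08 to 0.24. Of the 6 tested, 5 had a difference above 0, beside 4508 of all 8527 genes tested. The group's median was 0.19 beside 0.02 for all genes.

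Of the Rabs of the endoplasmic reticulum and Golgi, Rab2a had the largest difference. Rab2a acts in traffic between these compartments, and its signals were 503 and 621 on the parental arrays, 1296 and 1192 for tumor 1, 863 and 895 for tumor 2, and 908 and 1037 for tumor 3. All tumor arrays were above both parental arrays, and tumor 1 was the highest. The difference was 0.85 ± 0.21 (limma adjusted p = 0.127, and 0.00761 with the replicate block). Rab1a, which is needed for vesicles from the endoplasmic reticulum to reach the Golgi, had 1450 and 1812 on the parental arrays, 1875 and 2024 for tumor 1, 1607 and 1791 for tumor 2, and 1782 and 2187 for tumor 3. Rab6a, which moves membrane back through the Golgi, had 1022 and 1210, then 1075 and 1238, 1029 and 1293, and 1142 and 1113 in the same order. Both had overlapping groups, with differences of 0.20 ± 0.18 and 0.04 ± 0.16. The other 6 members tested lay between -0.15 (Rab1b) and 0.33 (Rab33a), and 8 of the 9 were under 0.5 in size. Rab33a passed the filter on low signal only through tumor arrays, so its value is given as a description.

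In the recycling group Rab11a, which returns receptors to the surface, had 565 and 539 on the parental arrays, 730 and 958 for tumor 1, 841 and 805 for tumor 2, and 768 and 760 for tumor 3. The groups did not overlap. The difference was 0.54 ± 0.15 (limma adjusted p = 0.164, and 0.0395 with the replicate block), and the second probe set gave a like value. Rab14, which links the Golgi with endosomes, had 1301 and 1135 on the parental arrays, 1561 and 1099 for tumor 1, 1547 and 1221 for tumor 2 and 1619 and 1405 for tumor 3. First arrays were higher throughout, and the single arrays overlapped (difference 0.20 ± 0.16). The paralog Rab11b had -0.10, and the other 5 members ranged from -0.39 (Rab17) to 0.30 (Rab4b). The group's median was 0.01.

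Among the late endosomal and lysosomal Rabs, Rab32 had the largest difference. Rab32, which with Rab38 delivers cargo to lysosome-related organelles such as melanosomes and platelet granules, had 48.2 and 109 on the parental arrays, 68.2 and 268 for tumor 1, 134 and 368 for tumor 2, and 128 and 276 for tumor 3. In every source the second array was the higher, and the first array of tumor 1 lay below the second parental array. The difference was 1.14 ± 0.33 (limma adjusted p = 0.175, and 0.00804 with the replicate block). Lyz2, a macrophage and granulocyte gene, also differed between duplicates of the tumors, with 45.7 and 903 for tumor 1, 93.2 and 437 for tumor 2 and 86.7 and 475 for tumor 3, against 18.5 and 16.6 in the parental cells. Of the 8 macrophage and monocyte markers tested, 7 had a difference above 0, some of them passing the filter only through tumor arrays. Csf1r had -0.65, with 11.5 and 554.6 on the parental arrays. C1qa, C1qc and Marco lay at or below the 40th percentile on all arrays. The part of macrophages and granulocytes in the Rab32 signal was not tested.

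Rab38 had 1642 and 1661 on the parental arrays, 1660 and 1490 for tumor 1, 1718 and 1575 for tumor 2 and 1713 and 1363 for tumor 3, a difference of -0.06 ± 0.15. Rab7, which directs late endosomes to lysosomes, had 792 and 1069, then 817 and 940, 847 and 881, and 1048 and 922 in the same order, a difference of -0.02 ± 0.19. Both had fully overlapping groups. The remaining members tested, Rab9, Rab24 and Rab29, lay between -0.14 and 0.18.

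In the last group, of ciliary and other Rabs, none of 4 members was called in the comparison of all tumors. Rab23, a brake on Hedgehog signalling, had low signals of 19.4 and 14.3 on the parental arrays, 4.0 and 20.8 for tumor 1, 2.3 and 2.3 for tumor 2 and 2.7 and 24.0 for tumor 3. The tumor means were below both parental arrays while single arrays overlapped, with a difference of -0.46 ± 0.23 (limma adjusted p = 0.379). Rab40c had -0.33 ± 0.18 (limma adjusted p = 0.416), with every tumor array below both parental arrays on the chosen probe set and a difference of 0.05 on its other one.

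The second question was how each tumor stood to the parental line, in a fit of all 8 arrays whose spread is that between duplicate arrays. Rab27b fell in each tumor, by 1.90, 1.93 and 2.05 on the log2 scale in tumors 1, 2 and 3 (limma adjusted p of 0.0293, 0.0442 and 0.0261). In tumor 1 the calls were Rab27b, Rab2a (1.13, adjusted p = 0.0188) and Rab31 (1.55, 0.0315), 3 of 42 members (7.14%) against 3.71% of all genes. In tumor 2 Rab27b was the single call (2.38%, against 1.54%), and in tumor 3 there were 2, Rab27b and Rab40b (4.76%, against 2.50%). Rab40b passed the filter only through the 2 arrays of tumor 3, where it is high, so its inclusion in that count is no support for a difference. The same limit holds for the calls of Rab27b in each tumor, since Rab27b passed the filter only through the parental arrays. With the replicate block the calls became 9 for tumor 1 (21.4%, against 15.1%), 6 for tumor 2 (14.3%, against 6.18%) and 6 for tumor 3 (14.3%, against 10.6%). Without the second parental array no member was called in any tumor, and without the first parental array Rab2a and Rab40b were not called. Leaving out either array of the tumor itself also ended the calls of Rab27b, Rab2a, Rab31 and Rab40b.

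Differences among the 3 tumors were then tested with limma's F test. No member was called (0 of 42, against 1.62% of all genes), and 4 had an unadjusted p under 0.05 (9.52%, against 12.5%): Rab40b, Rab37, Rab12 and Rab28. Rab40b, which pairs a Rab fold with a SOCS box that recruits a ubiquitin ligase, had 0.44 and 3.53 on the parental arrays, 1.91 and 2.92 for tumor 1, 6.57 and 14.9 for tumor 2, and 38.1 and 21.9 for tumor 3. Only the tumor 3 arrays lay above the 40th percentile, so the gene entered the fit only through the group where it is high, and its values are given as a description. The difference of tumor 3 from the parental cells was 1.34 on the log2(signal + 16) scale; without the filter it was not called (limma adjusted p = 0.0549). The F test gave an adjusted p of 0.0969 for Rab40b, and of 0.0416 with the replicate block, where it was the only member called (2.38%, against 6.46% of all genes), with the same limit.

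Rab37, a Rab of mast cell granules, had 398 and 482 on the parental arrays, 249 and 126 for tumor 1, 378 and 276 for tumor 2, and 498 and 475 for tumor 3. Tumor 1 was the lowest and tumor 3 level with the parental cells (differences of -1.23, -0.42 and 0.15). Rab12, which sends transferrin receptor to lysosomes, had 64.1 and 76.1 in the parental cells, 121 and 126 for tumor 1, 84.7 and 95 for tumor 2, and 70.2 and 73.2 for tumor 3. Rab28, a Rab of photoreceptor cilia, had 221 and 226, then 268 and 268, 266 and 261, and 174 and 193 in the same order, with tumor 3 below the other sources. The adjusted F-test p-values for Rab37, Rab12 and Rab28 were 0.16, 0.233 and 0.294 by limma. Fcer1a, the mast cell and basophil receptor chain, was highest in tumor 1, where Rab37 was lowest. The other tested markers of its list were mixed. Cpa3 (tumor means of 1016, 97.3 and 29.2) and Mcpt8 (98.3, 12.4 and 2.5) were also highest in tumor 1 among the tumors. Gata2 was lowest there (1575, against 1964 and 2032), and Cma1 was level (225, 245 and 219). The part of such cells in the Rab37 signal was not tested.

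**Figure D3:**
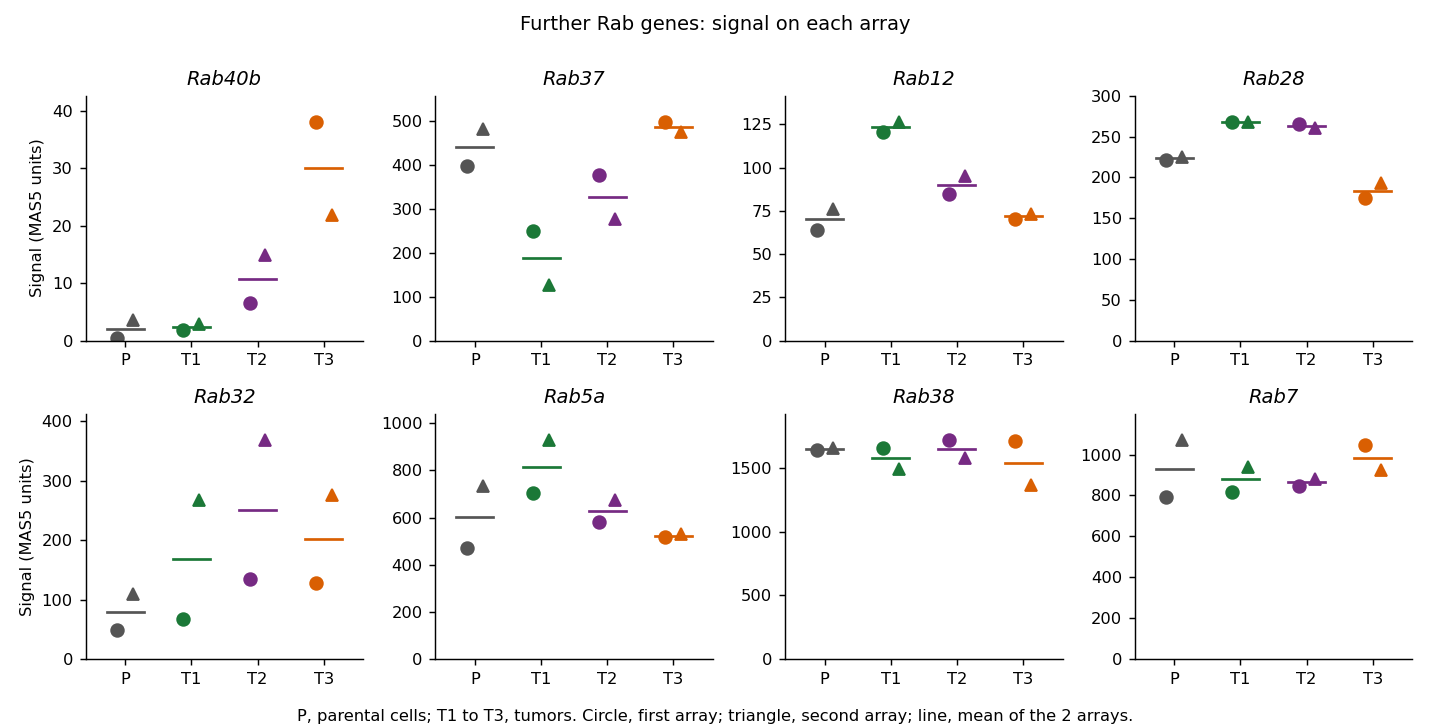
Signal (linear MAS5 units, axis from 0) of 8 further Rab genes on each array of parental cells (P) and tumors 1 to 3 (T1 to T3), with circles for first arrays, triangles for second arrays and lines for their mean. Rab40b is highest in tumor 3 (38.1 and 21.9), Rab37 is lowest in tumor 1 (249 and 126), Rab32 has the second array above the first in every source, and Rab38 and Rab7 show overlapping sources.

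Several members had more than 1 probe set, which gives a second reading of the same RNA though not a second sample. For 21 members at least 2 probe sets passed the filter, and 29 of their 36 other probe sets gave a difference of the same sign as the chosen one. The probe sets of Rab27a, Rab31, Rab2a, Rab3d and Rab11a were all above 0, and those of Rab10 and Rab27b all below. Both Rab27b probe sets passed the filter through the parental arrays, where the gene is high. Their shared sign is thus no support for a difference. Signs differed where the differences were small, as for Rab2b, whose 5 probe sets ran from -0.19 to 0.18. Members on 1 probe set, such as Rab5c and Rab32, have no such check.

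**Figure D4:**
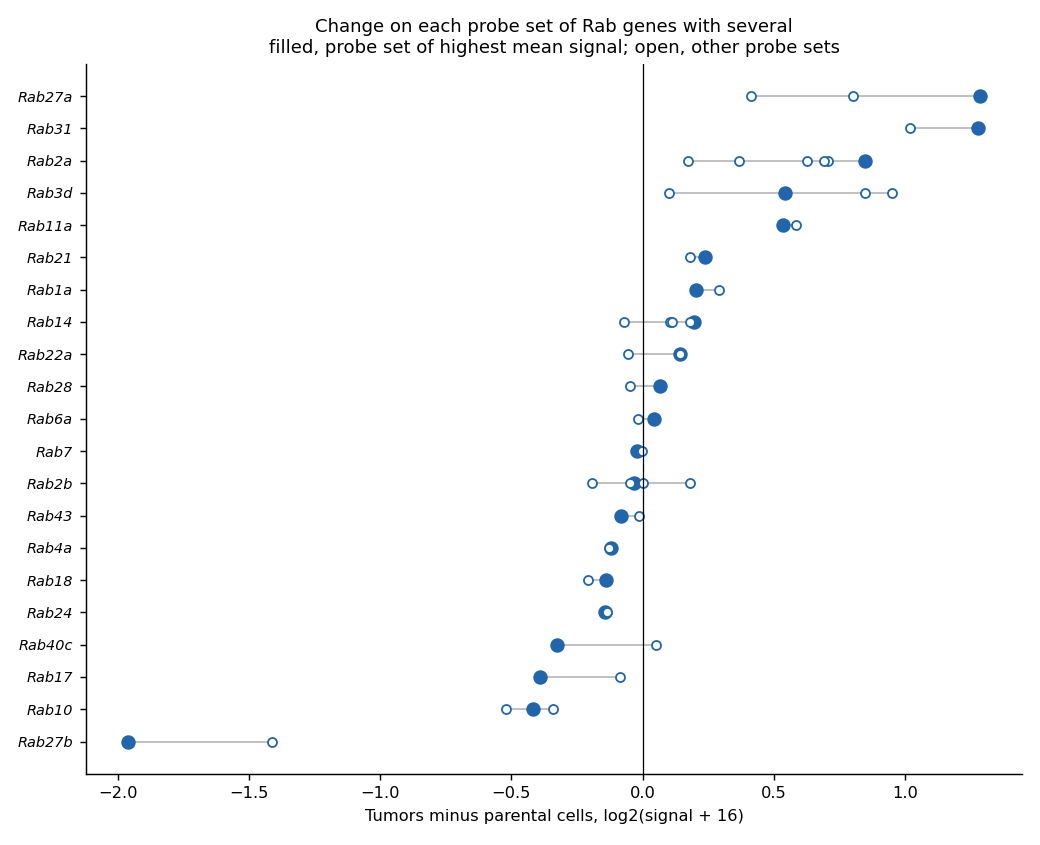
Difference between tumors and parental cells on the log2(signal + 16) scale for each probe set above the filter, for the 21 Rab genes with several. Filled points are the probe sets of highest mean signal, open points the others and grey lines their range. Both Rab27b probe sets lie below -1, and all probe sets of Rab27a, Rab31, Rab2a, Rab3d and Rab11a lie above 0. The Rab27b probe sets passed the filter through the parental arrays, where the gene is high.

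The 8 members not tested were low on nearly all arrays. They were the neuronal and endocrine Rab3a, Rab3b and Rab3c, the Golgi members Rab6b and Rab30, and Rab7b, Rab20 and Rab34. Their signals ran from 0.22 to 48.4, the highest being Rab20 on the second array of tumor 1, and all other values were at most 17.8. No difference is given for them.

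The genes that load, switch and read Rab proteins gave shares near those of all genes. Of 144 such genes in 6 lists, 87 were on the array and 76 were tested, and limma called 0 of them in the comparison of all tumors, against 0.762% of all genes, a share under 1 gene in a list of this size. At an unadjusted p under 0.05 there were 4 higher and 7 lower, against 16.4% of all genes (832 higher and 565 lower), and the median difference was 0.00 beside 0.02 for all genes. Among the 12 tested Rab27 effectors and granule fusion genes, Mlph and Myo5a, which link Rab27a on melanosomes to actin, had the lowest p. Mlph had 4.2 and 11.3 on the parental arrays and 20.9 to 48.6 on the tumor arrays, a difference of 1.00 ± 0.26 (limma adjusted p = 0.145). Mlph passed the filter on low signal only through the tumor arrays, where it is high, so its values are given as a description. Myo5a had 113 and 124, and 154 to 260, a difference of 0.62 ± 0.17 (0.164). For both, every tumor array lay above the parental arrays, as it did for Rab27a.

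In the other lists the lowest p-values went mostly with lower tumor signal. Osbpl1a, a Rab7 effector that binds sterols, had 448 and 395 on the parental arrays and 99.4 to 263 on the tumor arrays, a difference of -1.51 ± 0.27 (limma adjusted p = 0.078). Vps11, a core subunit of the late endosomal tethering complexes, had 0.53 ± 0.17 (0.202). Rin1, an exchange factor for Rab5, had -0.81 ± 0.19 (0.12), and Hps1, a subunit of the exchange factor for Rab32 and Rab38, -0.59 ± 0.16 (0.164). Gorasp1 and Golga5, of the Golgi stacks, had -0.83 ± 0.17 (0.101) and -0.69 ± 0.19 (0.16). Rabggtb, the catalytic chain of the Rab prenylating enzyme, had 830 and 826 in the parental cells and 447 to 624 on the tumor arrays (-0.56 ± 0.17, 0.187), and Rabif had 0.34 ± 0.19 (0.426). Of the GTPase-activating proteins, Rabgap1l had -0.93 ± 0.34 (0.257) and Sgsm3 0.57 ± 0.25 (0.333). Gorasp1 passed the filter on low signal only through the parental arrays, and Sgsm3 only through tumor arrays. Each is high in that group, so the values of Gorasp1 and Sgsm3 are given as a description.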

How the data were processed

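RNA of parental FL5.12 cells and of 3 splenic tumors was hybridised to 8 Affymetrix arrays, with 2 arrays for each source. The deposited values are linear signal intensity per probe set, made with MAS5 per the submitters' processing notes (version and settings not given in the sources used here). Such scaling lowers all other genes where a few take more of the signal, and detection calls were not used. Platform symbols were brought up to date through gene IDs in a RefSeq table (GRCm38.p6), which held all 50 members.

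From these intensities log2(signal + 16) was computed, which understates changes of low genes. limma 3.58.1 in R 4.3.3 was fitted to all 8527 genes, tested on simulated data, with two-sided tests and Benjamini-Hochberg adjustment at 0.05. The main comparison set 3 tumors (means of 2 arrays) against 2 parental arrays, with 3 residual degrees of freedom. Single tumors and the F test used all 8 arrays, a mean per source and 4 residual degrees of freedom. The array number was taken as pairing the arrays because same-numbered arrays deviated together in all 6 pairs of sources. Values in every array are given for Rab27b, Rab27a, called members, the 10 of lowest p, the 5 of highest mean signal and the brightest of each role, and Rab37 and Rab12 were added after their values were seen. The members and lists were chosen with earlier results of these data known. Other pseudocounts, filters, scalings, probe set rules, priors and blocks and left-out arrays were tried.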

Additional observations from a re-analysis of the deposited data

How the results depend on the processing

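Across the 27 settings tried no called member changed sign, and small differences of named members that were not called changed sign in 18 cases (Rab5a, Rab6a, Rab7, Rab8b, Rab28 and Rab38). The count of members called for tumors against parental cells, 1 in the comparison as reported, was 0 with a pseudocount of 64, without the filter, with the filter at the 60th percentile (where Rab27b was not tested), with probe sets averaged per gene, and on first or second arrays alone. It was 8 with the replicate block, 3 with all 8 arrays and a mean per source without the block (chosen after seeing the data), and 0 to 1 when a parental array or tumor was left out. Without the block but with source as a random block it was 1, and 1 with both (also added later). Across all genes the count went from 65 to 1246 with the replicate block.

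For tumor 1, with 3 calls, the count was 1 with a pseudocount of 1 and without the filter, 9 with the replicate block and 0 to 2 with an array left out. For tumor 2, with 1 call, it was 0 with a pseudocount of 1 or 64, without the filter, with the stricter filter and with the mean of probe sets, 6 with the replicate block, and 0 to 2 with an array left out. For tumor 3, with 2 calls, it was 1 with a pseudocount of 1, with the mean of probe sets and with a trended robust prior, 0 without the filter and with the stricter filter, 6 with the replicate block, and 0 to 2 with an array left out. The F test among tumors called 1 member with the replicate block and 0 in each other setting. Rab27b was below 0 in all 19 settings that measured it, from -2.90 to -1.06, with adjusted p from 0.000881 to 0.213. The cause of the other changes was not tested. The number of arrays, 2 parental ones and 3 tumors, limits the precision of every value.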
